A study of Homo sapiens with 6 samples.

Results

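The S100 proteins, annexins and galectins were compared between 231-BR cells and MDA-MB-231 cells. Members were taken by gene symbol, and the families were chosen with earlier results of these data known. The symbols were S100 followed by a letter and an optional number, ANXA followed by a number, or LGALS followed by a number and an optional letter. This gave 35 of the 17039 genes in the expression table, namely 14 S100 proteins, 12 annexins and 9 galectins. MDA-MB-231 is an established human breast cancer line with a mesenchymal, hormone receptor-negative character. 231-BR is a variant of this line, here called parental, that was selected for growth in the brain. The 231-BR cells were a gift from another laboratory, whereas the MDA-MB-231 cells were bought from ATCC. Only the 231-BR medium contained the antibiotic G418. Effects of the medium or of the source of the cells and a difference between the lines cannot be told apart. Poly(A) RNA was sequenced from cultured cells of each line in 3 libraries. One label field raises the number in the name of the line by 1 from replicate to replicate, whereas the titles name only 231-BR and MDA-MB-231, and the libraries were grouped by title.

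S100 proteins are small calcium sensors of the EF-hand type that, on binding calcium, expose a surface for partner proteins such as annexins, myosin and cell surface receptors. Annexins bind acidic phospholipids in the presence of calcium and act in membrane repair, vesicle traffic and the organisation of the membrane skeleton. Galectins bind galactose-containing glycans and work both outside the cell, where they link glycoproteins, and inside it, where they recognise damaged vesicles. Members of these families are known as abundant products of breast cancer cells, and S100B and galectin-3 are also known as products of astrocytes and microglia, respectively.

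Expression was given as FPKM, a fragment count scaled to transcript length and to the mapped fragments of a library, so that levels can be compared between genes per length. The depth of the libraries is unknown because the values hold no counts. The summed FPKM ranged from 465020 to 472007 in 231-BR cells and from 486937 to 496420 in the parental cells. Each fold change sets 231-BR against the parental cells on the log2(FPKM + 0.1) scale, on which the change of genes with low values is understated. They were tested with limma's moderated test over the 13465 genes that averaged 0.1 FPKM or more, with Benjamini-Hochberg adjustment, and errors are the SD over 3 libraries. Nothing in the sources used here says that the replicates were separate cultures, and the p-values then measure the spread between these libraries, which may be technical. In bulk RNA, fewer cells with a transcript and less of it per cell cannot be told apart.

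ANXA2 and several other abundant annexins were higher in 231-BR cells, whereas 7 of the 11 S100 genes tested and LGALS1 were lower. ANXA2, ANXA1, ANXA5 and ANXA3 differed by 1.35- to 1.55-fold, and S100A11, S100A10, S100A16 and LGALS1 by 1.51- to 2.2-fold in the other direction. S100A6, which stood among the 4 most expressed members in both lines, did not pass the test. Of the 25 members tested, 11 were higher and 12 lower at an adjusted p under 0.05. Of the 11 S100 genes among them, 3 were higher and 7 lower. Among all genes tested 77.3% were called, 44.4% as higher and 32.9% as lower, so the number of calls itself does not set the members apart. The median log2 fold change was -0.59 for the 11 S100 genes tested, 0.19 for the 11 annexins and 0.74 for the 3 galectins, against 0.08 for all genes tested. These medians kept their sign but depend on the settings and on which low genes are tested. That of the S100 genes was -0.26 without a filter, -0.20 with a pseudocount of 1, -0.37 without 231-BR replicate 1 and -0.39 without MDA-MB-231 replicate 1. That of the annexins was 0.37 with a filter at 1 FPKM and 0.11 with median-of-ratios scaling, and that of the galectins 0.28 without a filter. Genes averaging 100 FPKM or more were lower in 57.0% of cases and higher in 31.7%, and of the 10 members at this level 4 were higher and 5 lower. Past 2-fold, 3.33% of the genes at this level were lower and 1.86% higher, and of the 10 members LGALS1 and S100A16 were lower and none was higher.

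**Figure D1:**
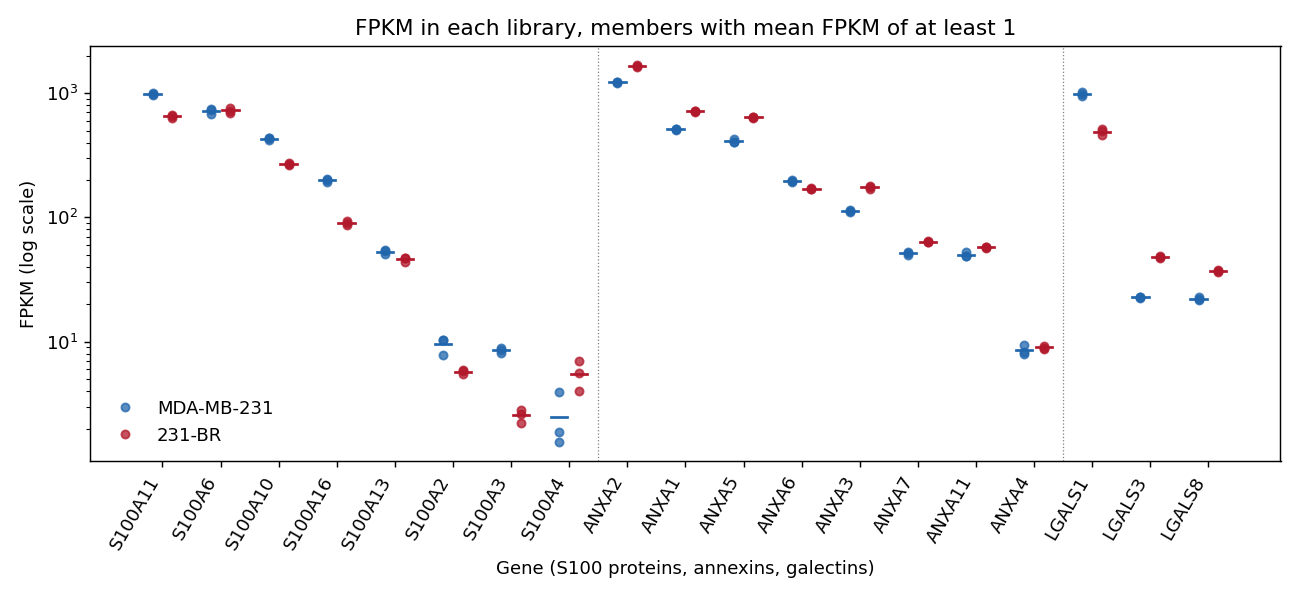
FPKM of the 19 members that averaged 1 or more in either line, on a log axis, with 1 point per library and a bar at the mean of each line. ANXA2 is the highest member in both lines, the S100A11, S100A10, S100A16 and LGALS1 points of 231-BR cells lie below those of MDA-MB-231 cells, and the S100A6 points overlap.

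The other 10 members had a mean under 0.1 FPKM over the 6 libraries and were not tested. They were S100A1, S100A14, S100B, ANXA13, LGALS2, LGALS4, LGALS7B, LGALS9, LGALS9B and LGALS9C. S100B, the S100 protein of astrocytes, was listed at 0.05 FPKM in 1 library of 231-BR cells and at 0 in the other 5 libraries. In all, 15 members stayed under 1 FPKM in every library. The 25 members tested include 6 with a mean under 1 FPKM in both lines, and all 6 were called. Such genes can pass the filter on low values through the line in which they are higher, so the counts describe only the genes that passed.

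The libraries were checked against markers of breast and other cells. The summed FPKM of 5 mesenchymal genes was 3941 to 3974 in 231-BR cells and 3220 to 3272 in the parental cells. Of these genes VIM (log2 fold change 0.15), MSN (1.37) and CAV1 (1.09) were higher in 231-BR cells, whereas CD44 (-0.47) and AXL (-0.27) were lower. CAV1 is among the genes that the study picked from these same libraries, so its direction is not independent evidence. CDH1, the epithelial cadherin, stayed under 0.1 FPKM in every library, and ESR1, the oestrogen receptor, had means of 0.927 and 0.790 FPKM. The 8 luminal genes summed to 463 to 477 FPKM in 231-BR cells and to 576 to 621 FPKM in the parental cells, most of it from the keratins KRT8 (-0.43) and KRT18 (-0.37). GATA3 (1.34), ERBB2 (0.98) and EPCAM (0.77) of the same list were higher in 231-BR cells, and the median of the 6 tested was 0.49. The 7 myeloid genes in the table summed to 0.49 to 0.83 FPKM in 231-BR cells and to 0.73 to 1.46 FPKM in the parental cells. The 7 astrocyte and oligodendrocyte genes summed to 21.1 to 21.7 FPKM against 13.2 to 14.6 FPKM, almost all of it from MBP, while GFAP, which defines astrocytes, had means of 0.0433 and 0.00667 FPKM. The 6 keratinocyte genes summed to 9.80 to 10.1 FPKM against 8.98 to 9.06 FPKM, most of it from KRT10 (0.05). TP63 of the same list was higher in 231-BR cells (1.27), with means of 0.750 and 0.247 FPKM. The part of the marker genes in the results was not tested.

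The most expressed S100 genes were the partners of annexins. S100A11, which binds annexin A1 and acts in membrane repair, lies on chromosome 1 (chr1:152032506-152047907, minus strand, GRCh38). Its FPKM was 633, 657 and 663 in 231-BR cells and 961, 1003 and 981 in the parental cells, with means of 651 ± 15.6 and 982 ± 21.0 (SD, n = 3). All libraries of 231-BR cells lay below those of MDA-MB-231 cells, and S100A11 fell by 0.59 on the log2 scale (SE 0.025, adjusted p = 1.3e-08 by limma). S100A10, also called p11, forms a tetramer with annexin A2 that binds plasminogen and its activator at the cell surface, and lies at chr1:151982915-151994390 on the minus strand. S100A10 had 269, 266 and 274 FPKM in 231-BR cells and 417, 435 and 436 FPKM in the parental cells. The groups did not overlap, and the log2 fold change was -0.67 (SE 0.025, adjusted p = 4.7e-09).

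S100A6, or calcyclin, a partner of annexin A11 that is abundant in dividing cells, was the exception among the highly expressed S100 genes (chr1:153534599-153536244, minus strand). Its FPKM was 695, 724 and 762 in 231-BR cells and 680, 729 and 743 in the parental cells. The libraries of the lines overlapped, and the log2 difference of 0.02 had a 95% confidence interval from -0.07 to 0.11 (adjusted p = 0.68). The direction of this small difference depends on the scaling. It was -0.06 with median-of-ratios scaling and 0.19 with quantile normalization, where its adjusted p was 0.00012. Quantile normalization moves the median of all genes to -0.06, by over 0.1 from 0.08, and the S100A6 change is then larger relative to that median.

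S100A16, a widely expressed S100 protein that binds calcium weakly, fell by more than any other S100 gene above 10 FPKM (chr1:153606886-153613145, minus strand). It had 87.4, 89.6 and 93.7 FPKM in 231-BR cells and 193, 202 and 202 FPKM in the parental cells. The difference between the lines exceeded the range within either, with a log2 fold change of -1.14 (SE 0.031, adjusted p = 5.6e-10). S100A13, which takes part in the release of FGF1 and interleukin-1α from cells, was lower as well, at 46.1 ± 1.77 against 53.0 ± 2.08 FPKM (log2 fold change -0.20, adjusted p = 0.00067). Its value is uncertain because 56.4% of the windows of 100 bases in its longest coding transcript also occur in AL162258.1, a transcript on the same strand whose exons overlap it by 536 bases.

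Among the S100 genes with low FPKM, S100A3 and S100A4 changed in opposite directions. S100A3, known from the cuticle of hair, had 2.23, 2.82 and 2.60 FPKM in 231-BR cells and 8.89, 8.18 and 8.59 FPKM in the parental cells. It was 3.35-fold higher in MDA-MB-231 cells, with no overlap (log2 fold change -1.71, SE 0.083, adjusted p = 3e-08). S100A4, also called metastasin, binds non-muscle myosin IIA and is known for its link to metastasis. It had 4.01, 7.0 and 5.57 FPKM in 231-BR cells and 1.56, 1.89 and 3.94 FPKM in the parental cells. The lowest library of 231-BR cells thus lay just above the highest of MDA-MB-231 cells, and the SD was 27.1% and 52.3% of the mean. S100A4 was higher in 231-BR cells with a log2 fold change of 1.21 (SE 0.299, 95% confidence interval 0.54 to 1.88, adjusted p = 0.0039), and without MDA-MB-231 replicate 1 the change was 0.95.

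S100A2, an S100 protein of squamous and basal epithelial cells, fell from 9.50 ± 1.42 to 5.75 ± 0.21 FPKM (log2 fold change -0.70, SE 0.096, adjusted p = 6.9e-05). The remaining tested S100 genes were under 1 FPKM on average. S100Z was listed at 0.60, 0.62 and 0.74 FPKM in 231-BR cells and at 0.09, 0.07 and 0.03 FPKM in the parental cells. The log2 change was 2.22 (SE 0.188, adjusted p = 1.9e-06). Its mean in the parental cells was 0.0633 FPKM, so S100Z passed the filter on low values only through 231-BR cells. S100P, first described in placenta, had 0.28, 0.19 and 1.03 FPKM against 0, 0.28 and 0.09 FPKM. The libraries of S100P overlapped, 1 library of 231-BR cells stood above the rest, and its log2 change of 1.37 (adjusted p = 0.043) missed the threshold under most other settings, such as without 231-BR replicate 3 (0.78, adjusted p = 0.17). Over all alternatives its adjusted p ranged from 0.012 to 0.17. S100A5, at 0.25 against 0.42 FPKM, had a log2 fold change of -0.59 (adjusted p = 0.011).

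S100A3 and S100A4 are neighbours on chromosome 1. In GENCODE release 29, S100A3 (chr1:153547329-153549372) lies wholly within the span of S100A4 (chr1:153543613-153550136) on the same strand, without a shared exonic base. The promoters, here the 250 bases before the start of transcription in RefSeq (GRCh38.p14), are shown for this pair and for the pair S100A10 and ANXA2, whose products bind each other while the changes had opposite signs. Capitals mark matches on either strand. The TATA box was searched as the letters TATAAA. The CCAAT box was searched by the letters of its name. The GC box was searched as the letters GGGCGG. The site of the transcription factor AP-1 was searched as TGANTCA, where N is any base. Positions are counted from the start of transcription. S100A3 (chr1:153549259-153549508, minus strand) held an AP-1 match at -225, a GC box at -142 and a CCAAT box at -80. S100A4 (chr1:153545807-153546056, minus strand) held a TATA box at -31 and no other match. S100A10 (chr1:151993860-151994109, minus strand) held 1 GC box at -167. ANXA2 (chr15:60397987-60398236, minus strand) held an AP-1 match at -127, 3 overlapping GC boxes from -78 on and a TATA box at -31.
S100A3: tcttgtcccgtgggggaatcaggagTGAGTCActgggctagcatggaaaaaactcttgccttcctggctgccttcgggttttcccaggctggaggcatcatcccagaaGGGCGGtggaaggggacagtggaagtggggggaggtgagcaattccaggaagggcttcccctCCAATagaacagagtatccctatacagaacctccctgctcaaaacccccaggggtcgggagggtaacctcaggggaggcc
S100A4: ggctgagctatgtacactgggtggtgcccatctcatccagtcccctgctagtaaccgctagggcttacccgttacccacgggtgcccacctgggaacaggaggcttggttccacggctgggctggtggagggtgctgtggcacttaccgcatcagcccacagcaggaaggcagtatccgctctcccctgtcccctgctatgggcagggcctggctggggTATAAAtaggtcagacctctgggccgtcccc
S100A10: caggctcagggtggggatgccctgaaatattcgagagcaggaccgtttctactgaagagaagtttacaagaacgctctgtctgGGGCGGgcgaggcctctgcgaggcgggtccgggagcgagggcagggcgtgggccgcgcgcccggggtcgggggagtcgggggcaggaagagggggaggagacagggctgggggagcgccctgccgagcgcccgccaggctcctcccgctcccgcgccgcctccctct
ANXA2: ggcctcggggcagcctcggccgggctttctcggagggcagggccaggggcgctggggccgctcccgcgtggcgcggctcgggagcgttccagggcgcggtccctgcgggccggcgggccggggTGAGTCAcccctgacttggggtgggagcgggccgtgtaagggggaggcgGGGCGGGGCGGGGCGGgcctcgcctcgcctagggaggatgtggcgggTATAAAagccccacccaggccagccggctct

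Within either pair the genes differed in the matches they held and in base composition. The GC content was 58.4% for S100A3 and 62.8% for S100A4, and 71.2% for S100A10 and 78.0% for ANXA2, against a median of 58.0% over the 35116 promoters of the table. Of the 35 members, 31 were in that table, and LGALS1, S100B, ANXA8 and ANXA13 were not. Some members have more than 1 start of transcription, and the 31 members had 42 promoters. A TATA box was found in 9 of the 42 promoters (21.4%) against 10.7% of all promoters, and a CCAAT box in 8 (19.0%) against 32.0%. A GC box was found in 16 (38.1%) against 42.6%, and an AP-1 match in 5 (11.9%) against 6.57%. A match describes letters in this window and not a bound site.

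Most S100 genes of chromosome 1 were lower, and S100A4 was the one called higher. The table held 11 S100 genes of chromosome 1, and of the 9 tested, 7 had a log2 fold change below 0, with a median of -0.59. The 4 other tested genes between the outermost of them, TCHH, HRNR, FLG and SPRR2A, had log2 fold changes of -0.93, 0.00, 0.36 and -2.71. They encode structural proteins of skin and hair, and only FLG exceeded 1 FPKM. With 40 tested genes on either side, the 83 genes that were no members had a median of -0.15, and 59 of them were below 0. The median of all 1357 tested genes of chromosome 1 was 0.21, with 509 below 0. The part of the surrounding region in the S100 values was not tested.

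**Figure D2:**
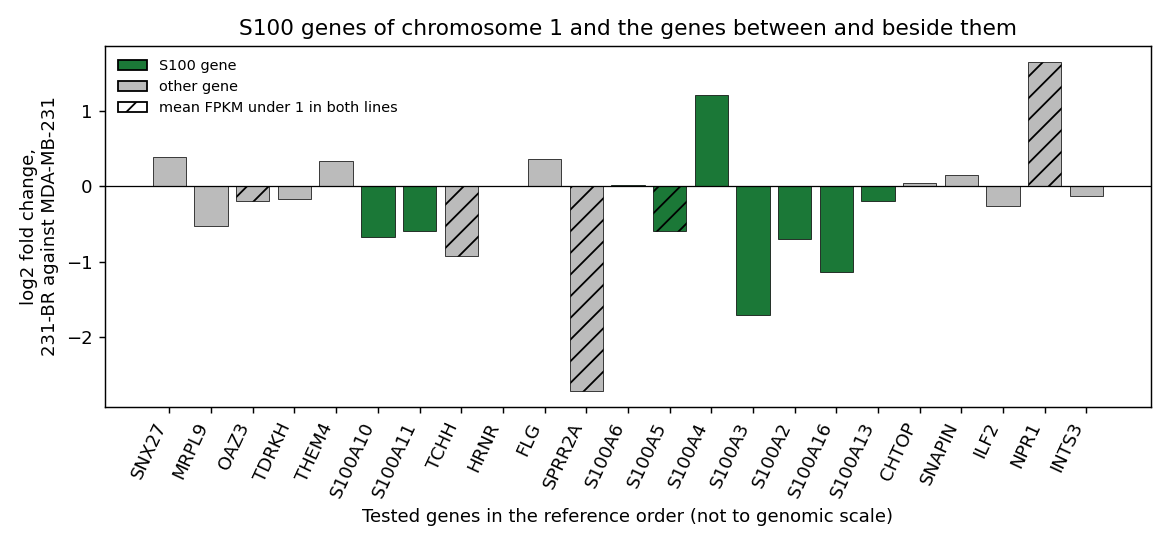
Bars give the log2 fold change (231-BR against MDA-MB-231, on the log2(FPKM + 0.1) scale) of tested genes of chromosome 1 in gene order, not to genomic scale, with S100 genes in green, other genes in grey and genes with a mean under 1 FPKM in both lines hatched. S100A10, S100A11, S100A5, S100A3, S100A2, S100A16 and S100A13 lie below 0, S100A6 lies near 0 and S100A4 lies above 0.

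Of the 11 annexins tested, 6 were higher and 4 lower, beside 44.4% higher and 32.9% lower among all genes tested. These counts do not set the annexins apart. ANXA2, the partner of S100A10 and a regulator of the actin cytoskeleton and of plasmin formation at the cell surface, was the most expressed member in both lines (chr15:60347134-60402883, minus strand). It had 1638, 1689 and 1635 FPKM in 231-BR cells and 1216, 1235 and 1231 FPKM in the parental cells. The groups were far apart relative to their spread, with a log2 fold change of 0.43 (SE 0.022, adjusted p = 4.3e-08). ANXA2 ranked 25th among all genes in 231-BR cells and 61st in the parental cells. Of the windows of 100 bases in its transcript, 18.2% also occur in the processed copy ANXA2P2, so that reads could be shared between the genes.

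ANXA1, which restrains inflammation through formyl peptide receptors, had 709, 724 and 719 FPKM in 231-BR cells and 511, 507 and 513 FPKM in the parental cells (chr9:73151757-73170393, plus strand). Its log2 fold change was 0.49 (SE 0.020, adjusted p = 8.2e-09), with every library of 231-BR cells above every library of MDA-MB-231 cells. ANXA5, known as the reagent that detects exposed phosphatidylserine and as a factor of membrane repair, had 642, 635 and 637 FPKM against 407, 401 and 425 FPKM (chr4:121667955-121697113, minus strand). This was a log2 fold change of 0.63 (SE 0.025, adjusted p = 7.8e-09), again without overlap. ANXA3 rose by a like amount, from 113 ± 2.78 to 175 ± 4.23 FPKM (log2 fold change 0.63, adjusted p = 1.3e-08). Smaller increases were found for ANXA7, an annexin of secretory vesicles, from 51.4 ± 1.5 to 63.7 ± 0.42 FPKM (0.31, adjusted p = 2.7e-06), and for ANXA11, which tethers RNA granules to lysosomes, from 50.1 ± 1.86 to 57.3 ± 0.18 FPKM (0.19, adjusted p = 0.00019).

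ANXA6, a large annexin of endosomes and cholesterol transport, was the only annexin above 1 FPKM that fell. It had 172, 169 and 170 FPKM in 231-BR cells and 193, 197 and 198 FPKM in the parental cells. The groups did not overlap although the log2 fold change was only -0.20 (SE 0.021, adjusted p = 8.4e-06). ANXA4, an annexin of epithelial membranes, had 8.99 ± 0.25 and 8.58 ± 0.77 FPKM, and its log2 difference of 0.07 had a 95% confidence interval from -0.07 to 0.21 (adjusted p = 0.33). Its sign also depends on the scaling, with -0.01 under median-of-ratios scaling and -0.06 under quantile normalization. Without MDA-MB-231 replicate 1 the difference was 0.14 with an adjusted p of 0.027.

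Of the annexins under 1 FPKM, ANXA10 fell the most. ANXA10, an annexin of the stomach lining, was listed at 0.06, 0 and 0.03 FPKM in 231-BR cells. In the parental cells it was listed at 0.53, 0.20 and 0.37 FPKM (log2 fold change -1.81, adjusted p = 0.00025). Its mean in 231-BR cells was 0.03 FPKM, so ANXA10 passed the filter on low values only through MDA-MB-231 cells. ANXA8 fell from 0.363 to 0.157 FPKM (-0.83, adjusted p = 0.0025), but 69.2% of its windows of 100 bases occur in its copy ANXA8L1, so the genes cannot be separated with certainty. ANXA9 was at 0.467 and 0.753 FPKM (-0.58, adjusted p = 0.014). Its call was lost without 231-BR replicate 1 (adjusted p = 0.056) and without MDA-MB-231 replicate 3 (adjusted p = 0.059).

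**Figure D3:**
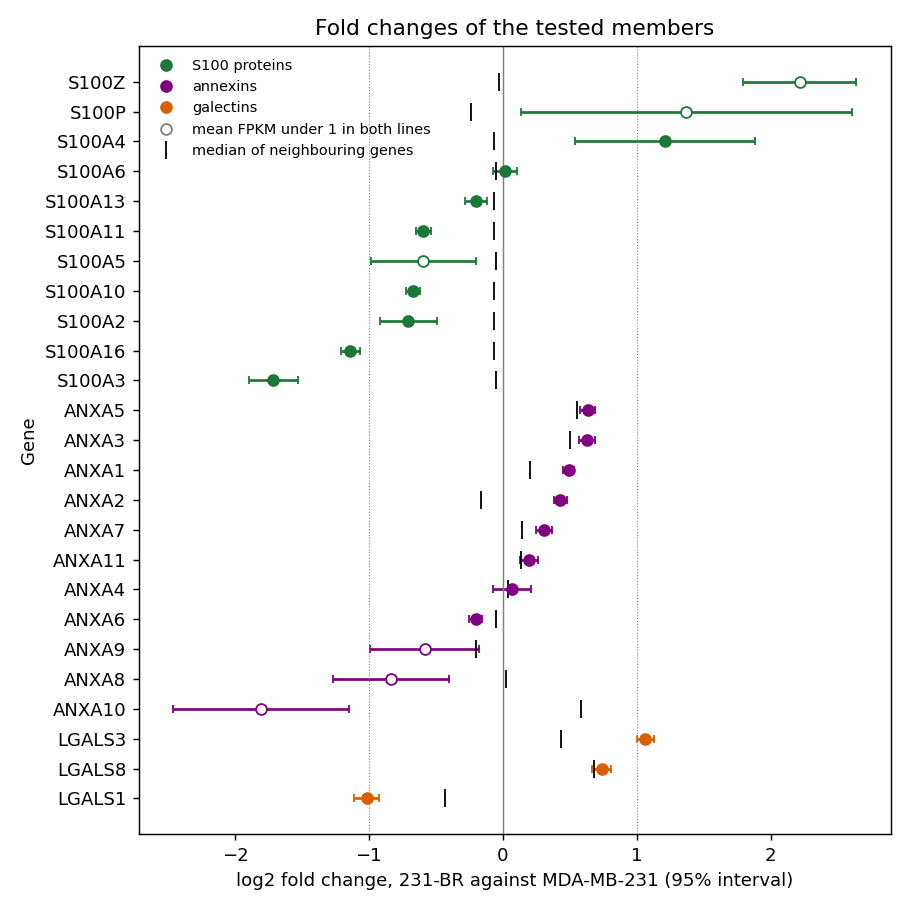
Log2 fold change (231-BR against MDA-MB-231, on the log2(FPKM + 0.1) scale) of the 25 tested members with 95% confidence intervals, coloured by family, with open circles for a mean under 1 FPKM in both lines, black ticks at the median of the neighbouring genes and dotted lines at the 2-fold limits. Of the 11 S100 genes 7 lie below 0, ANXA2, ANXA1, ANXA5 and ANXA3 lie above 0, and LGALS1 and LGALS3 lie near -1 and 1.

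The galectins changed in opposite directions. LGALS1, galectin-1, a dimeric galectin secreted by tumour and stromal cells that acts on integrins and on T cells, lies at chr22:37675608-37679806 on the plus strand. It had 461, 511 and 494 FPKM in 231-BR cells and 946, 987 and 1030 FPKM in the parental cells. LGALS1 was 2.02-fold higher in MDA-MB-231 cells without overlap, and its log2 fold change was -1.02 (SE 0.041, 95% confidence interval -1.11 to -0.92, adjusted p = 8.7e-09). Because this lies at the 2-fold limit, that criterion was missed without 231-BR replicate 1 (-0.97), without MDA-MB-231 replicate 3 (-0.99) and with quantile normalization (-0.88). LGALS1 belongs to a network group that the study picked from these same libraries, so its direction is not independent evidence.

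LGALS3, galectin-3, which forms lattices on cell surface glycoproteins and is gathered at damaged lysosomes, changed the other way (chr14:55124110-55145413, plus strand). It had 48.6, 48.1 and 46.8 FPKM in 231-BR cells and 22.9, 23.0 and 22.6 FPKM in the parental cells. The libraries of the lines were well apart, with a log2 fold change of 1.06 (SE 0.027, adjusted p = 3.7e-10) that was 0.98 with median-of-ratios scaling. LGALS8, galectin-8, which marks damaged vesicles for autophagy, had 37.8, 37.0 and 36.5 FPKM against 22.8, 21.9 and 21.8 FPKM (chr1:236518000-236552981, plus strand). Its log2 fold change was 0.74 (SE 0.031, adjusted p = 1.1e-08). Exons of LGALS8 overlap those of HEATR1 on the opposite strand by 2095 bases, HEATR1 was also higher (20.5 against 11.1 FPKM), and whether the counting used the strand is not given in the sources used here. LGALS9, which was not tested, had 0.13, 0.15 and 0.12 FPKM in 231-BR cells and 0, 0.03 and 0.08 FPKM in the parental cells.

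The order of the members by FPKM changed accordingly. In MDA-MB-231 cells ANXA2 was followed by LGALS1 and S100A11, whose libraries overlapped, then by S100A6, ANXA1, and S100A10 and ANXA5, which overlapped. In 231-BR cells ANXA2 was followed by S100A6 and ANXA1, which overlapped, then by S100A11 and ANXA5, which overlapped, and then by LGALS1 and S100A10. LGALS1 thus moved from the second to the sixth place, and among all genes from rank 75 to rank 135. S100A16 and ANXA6 overlapped in MDA-MB-231 cells, whereas in 231-BR cells ANXA6 was at 170 FPKM and S100A16 at 90.2 FPKM. S100A4 was the lowest of the 19 members above 1 FPKM in MDA-MB-231 cells, and S100A3 the lowest in 231-BR cells.

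Summed over each family, annexins held more of the FPKM in 231-BR cells, and S100 proteins and galectins held less. Of the summed FPKM, annexins held 0.742% ± 0.0075 in 231-BR cells and 0.522% ± 0.0017 in the parental cells (SD, n = 3). The S100 proteins held 0.383% ± 0.0095 and 0.488% ± 0.0094, and the galectins 0.122% ± 0.0044 and 0.210% ± 0.0064. In each family the values of the lines were apart. Together the 35 members held nearly the same share, 1.25% in 231-BR cells and 1.22% in the parental cells, and the sign of this small difference depends on the denominator. The summed S100 FPKM was 0.502, 0.510 and 0.536 of the summed annexin FPKM in 231-BR cells, against 0.911, 0.952 and 0.941 in the parental cells.

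The makeup of each family was given as the share of each member in the summed FPKM of its family. ANXA2 made up 47.4% of the annexin FPKM in 231-BR cells and 47.8% in the parental cells, and ANXA6 went from 7.63% in MDA-MB-231 cells to 4.89%. LGALS1 made up 95.6% of the galectin FPKM in MDA-MB-231 cells and 85.1% in 231-BR cells, while LGALS3 went from 2.21% to 8.35% and LGALS8 from 2.15% to 6.48%. S100A11 was the largest part of the S100 FPKM in MDA-MB-231 cells at 40.9%, against 29.9% for S100A6. In 231-BR cells S100A6 was the largest at 40.4%, against 36.2% for S100A11.

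Ratios were taken for pairs of binding partners and for LGALS1 to LGALS3, and they restate the changes of the single genes. S100A10 stood at 0.164, 0.157 and 0.168 of the FPKM of ANXA2 in 231-BR cells and at 0.343, 0.352 and 0.354 in the parental cells, 2.15-fold higher in the latter. The ratio of S100A11 to ANXA1 was 0.893, 0.908 and 0.921 against 1.88, 1.98 and 1.91, so that S100A11 exceeded ANXA1 in MDA-MB-231 cells only. LGALS1 was 9.47, 10.6 and 10.5 times LGALS3 in 231-BR cells and 41.3, 43.0 and 45.5 times in the parental cells, a 4.24-fold difference. The ratio of S100A6 to ANXA11 differed by only 1.13-fold, from 12.7 ± 0.59 in 231-BR cells to 14.3 ± 0.52 in MDA-MB-231 cells. All 4 ratios were without overlap, and the exact 2-sided permutation test gave p = 0.1, the smallest that 3 libraries against 3 allow. Ratios of transcripts do not give the ratios of the proteins.

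**Figure D4:**
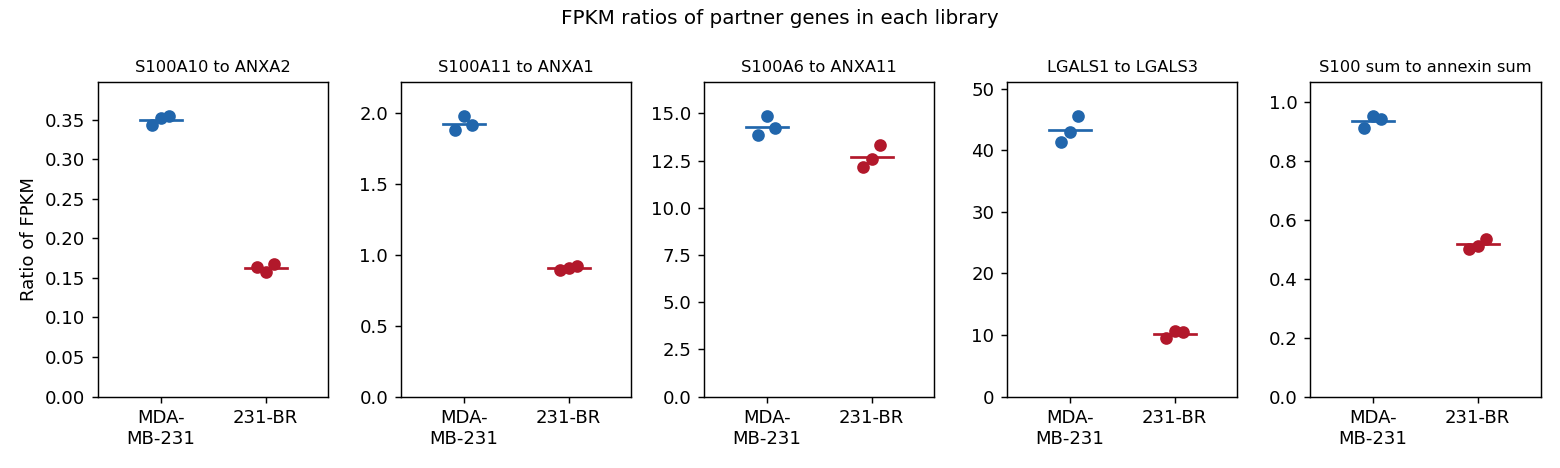
Ratios of FPKM for 4 pairs of genes and for the summed S100 and annexin genes, with 1 point per library, a bar at the mean of each line and a linear axis from 0 in each panel. The S100A10 to ANXA2, S100A11 to ANXA1 and LGALS1 to LGALS3 ratios are 2.15-, 2.12- and 4.24-fold higher in MDA-MB-231 cells, the S100A6 to ANXA11 ratio is 1.13-fold higher, and the sums stand at 0.502 to 0.536 in 231-BR and 0.911 to 0.952 in MDA-MB-231 cells.

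Past 2-fold, 4 members were higher and 4 lower. Among all genes tested, 10.9% were higher and 4.34% lower by this criterion. Those higher were S100Z, S100P, S100A4 and LGALS3, and those lower were S100A3, S100A16, ANXA10 and LGALS1. S100Z and ANXA10 passed the filter on low values only through the line in which they were higher. A mean of at least 1 FPKM in both lines left S100A4 and LGALS3 as higher and S100A3, S100A16 and LGALS1 as lower, while 6.45% of all genes tested met this criterion in either direction. No library of one line fell within the range of the other for 22 of the 25 members tested, 10 of them higher and 12 lower, against 78.4% of all genes tested.

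The genes around the members were examined as well. For each member, the median log2 fold change was taken over the tested genes other than members among the 20 on either side. It had the sign of the member for 7 of the 11 members that were higher and for 10 of the 12 that were lower, against 74.5% and 71.0% of all genes called higher and lower. Of the 10 lower members, 7 are S100 genes of chromosome 1, which share most of their neighbours and had medians of only -0.06 to -0.05, and the median around ANXA6 was -0.05. The neighbours of LGALS8 had a median of 0.69, close to its own 0.74, and those of ANXA5 and ANXA3 had medians of 0.56 and 0.50 beside 0.63 for either gene. The neighbours of LGALS3 and LGALS1 had medians of 0.44 and -0.43, less than the changes of 1.06 and -1.02 of these genes. ANXA2 went against its neighbours, whose median was -0.16, and ANXA10 fell among neighbours with a median of 0.58. The part of the surrounding genes in the members' values was not tested.

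Of the 13 listed partners and receptors of the S100 proteins, 12 were tested, and 5 were higher and 5 lower, with a median log2 fold change of -0.06. Beside the 44.4% higher and 32.9% lower of all genes tested, and their median of 0.08, these counts and those of the annexin partners are near the background. PLAT, the tissue plasminogen activator that binds the S100A10 and annexin A2 complex, rose from 6.76 ± 0.45 to 27.2 ± 0.48 FPKM (log2 fold change 2.0, adjusted p = 2.7e-10). MYH9, the heavy chain of non-muscle myosin IIA and the target of S100A4, fell from 246 ± 3.67 to 132 ± 1.35 FPKM (-0.90, adjusted p = 2.4e-10). AGER, a receptor for several S100 proteins, was at 0.877 ± 0.30 in 231-BR cells and 1.49 ± 0.12 FPKM in the parental cells (-0.75, adjusted p = 0.0076).

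Of the 21 listed annexin partners, 17 were tested, and 7 were higher and 6 lower, with a median of 0.04. The 3 with the largest change were higher. The 6 that were lower had log2 fold changes from -0.47 (EHD1) to -0.20 (VPS4A). PLA2G4A, the phospholipase that releases arachidonic acid, rose from 1.57 ± 0.067 to 4.15 ± 0.40 FPKM (log2 fold change 1.35, adjusted p = 2.1e-07). DYSF, or dysferlin, and MYOF, or myoferlin, which take part in membrane repair, rose by 0.96 and 0.67 on the log2 scale (adjusted p = 4.7e-08 and 1.6e-08). The formyl peptide receptors FPR1, FPR2 and FPR3, through which annexin A1 acts on leukocytes, stayed under 0.1 FPKM in every library.

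Of the galectin ligands, receptors and glycan enzymes, 20 were listed and 18 tested, and 12 were lower and 5 higher, with a median of -0.48, against 32.9% lower, 44.4% higher and a median of 0.08 for all genes tested. ITGB1, the integrin β1 chain bound by galectin-1, had 249, 243 and 245 FPKM in 231-BR cells and 494, 481 and 462 FPKM in the parental cells (log2 fold change -0.96, adjusted p = 6.8e-10). ITGB1 is also among the genes that the study picked from these libraries, and it is named here after its values were seen. LGALS3BP, a secreted glycoprotein that binds galectin-3, rose from 35.2 ± 1.18 to 119 ± 2.18 FPKM (1.75, adjusted p = 3e-11). ST6GAL1, whose sialic acid caps block the binding of galectin-1, rose from 0.810 ± 0.12 to 4.78 ± 0.17 FPKM (2.43, adjusted p = 1.4e-08). TRIM16, which works with galectin-3 at damaged lysosomes, fell from 43.6 ± 1.24 to 5.11 ± 0.44 FPKM (-3.07, adjusted p = 4.6e-11), although 45.8% of the windows of 100 bases in its transcript occur in 2 other genes.

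**Figure D5:**
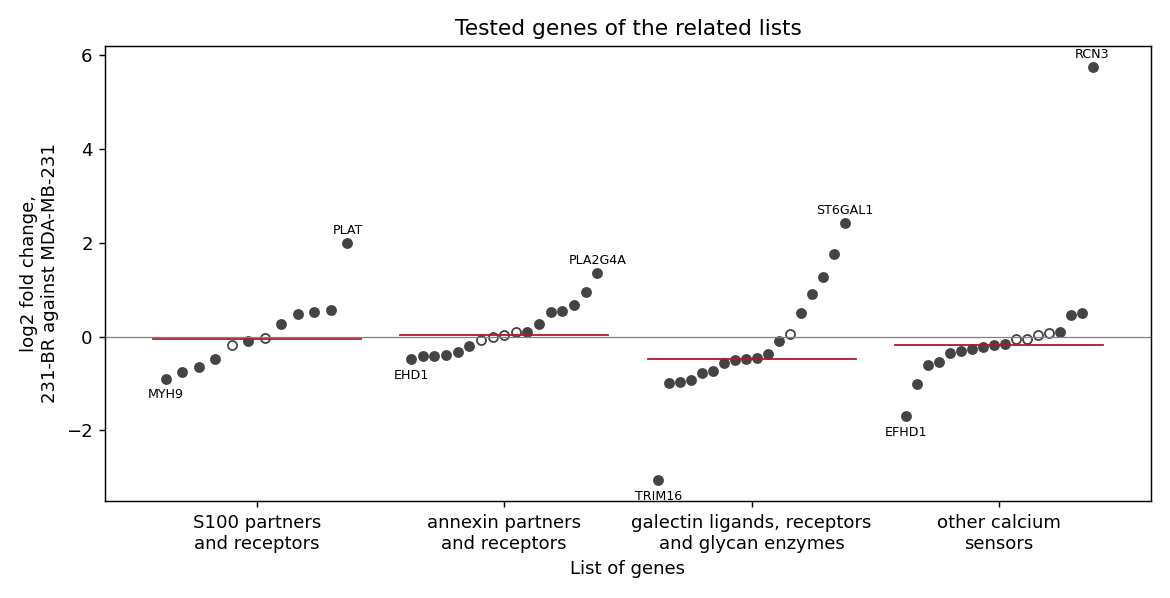
Log2 fold change (231-BR against MDA-MB-231, on the log2(FPKM + 0.1) scale) of the tested genes in the lists of partners and of other calcium sensors, with 1 point per gene, sorted by value, filled where the adjusted p was under 0.05, and a red line at the median of each list. The medians of the S100 and annexin partners lie at -0.06 and 0.04, and those of the galectin list and of the other calcium sensors lie at -0.48 and -0.17.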

How the data were processed

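Poly(A) RNA of 3 libraries of 231-BR and 3 of MDA-MB-231 cells had been sequenced by the authors, who filtered the reads, aligned them and deposited FPKM per gene with 2 decimals and no further normalization. The submitters' processing notes name HISAT2 2.0.4, Bowtie2 2.2.5 and GRCh38 (p12). The 6 files of single libraries held the same values as the table, and there were 0 unused sample columns. The authors' comparison used DESeq2, which needs counts and was not run here.

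A model of log2(FPKM + 0.1) with a term for the line was fitted in limma 3.58.1 under R 4.3.3 (lmFit, eBayes with trend) to the 13465 genes that averaged 0.1 FPKM or more, with Benjamini-Hochberg adjustment over all of them. Calls needed an adjusted p under 0.05, and 2-fold calls also an absolute log2 fold change over 1. The fit was tested on simulated data. Depth is unknown. Replicate numbers did not pair libraries: the correlations of same-numbered libraries' deviations were 0.0873, -0.0396 and -0.106, across genes.

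Members were taken by symbol, and members and lists were chosen with earlier results of these data known. Values per library were given for members past 2-fold with a mean of at least 1 FPKM in either line and for the 8 most expressed, and the 3 genes with the largest called change and a mean of at least 1 FPKM for each list. Gene positions and windows of 100 bases shared with other genes came from GENCODE release 29, and promoters from RefSeq (GRCh38.p14). Python 3.11.15, pandas 2.3.3, scipy 1.17.1 and matplotlib 3.10.9 were used. Alternatives were pseudocounts of 1 and 0.01, no filter, a filter at 1 FPKM, quantile normalization, median-of-ratios scaling, no trend in eBayes, a replicate block, a log2 limit of 1.5, shares without the 100 most expressed non-members, and each library left out. A planned ratio of S100A8 to S100A9 was not analysed here. Some single results are left out.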

Additional observations from a re-analysis of the deposited data

How the results depend on the processing

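The alternatives kept the direction and the call of most members. Over the named members, 325 comparisons with an alternative kept both, 12 lost the call, 2 gained it and 5 changed direction. The changes of direction were those of S100A6, at -0.0638 with median-of-ratios scaling and -0.0189 to 0.0511 with 1 library left out (below 0 without 231-BR replicate 3 and without MDA-MB-231 replicate 1), and of ANXA4, at -0.0127 with median-of-ratios scaling and -0.0593 with quantile normalization. The median of all genes was 0.08 as reported, -0.002 with median-of-ratios scaling and -0.06 with quantile normalization, and the calls, 5973 higher and 4433 lower, became 5247 and 5182 or 4825 and 5749. The replicate block gave 6015 and 4487 and changed no member's call. Members past 2-fold were 4 higher and 4 lower. The higher count was 2 with a filter at 1 FPKM, median-of-ratios scaling or quantile normalization. It was 1 with a pseudocount of 1 or a log2 limit of 1.5. The lower count was 3 with that pseudocount and 2 with that limit. Of the members past 2-fold, S100 genes higher numbered 1 with the filter, quantile normalization or the limit of 1.5. They numbered 0 with the pseudocount of 1, and S100 genes lower numbered 1 with the limit of 1.5. Annexins lower past 2-fold numbered 0 with the filter or the pseudocount of 1, 2 with a pseudocount of 0.01 and 3 with quantile normalization. Galectins higher numbered 0 with median-of-ratios scaling or the limit of 1.5, and galectins lower 0 with quantile normalization or that limit. With the filter, 1 S100 gene was called higher and 1 annexin lower, since fewer genes were tested. The median of the S100 genes was -0.26 without a filter, -0.20 with a pseudocount of 1 and -0.43 with quantile normalization. That of the annexins was 0.37 with the filter, 0.11 with median-of-ratios scaling and 0.16 without a filter, and that of the galectins 0.66 with median-of-ratios scaling, 0.28 without a filter and 0.68 with quantile normalization. Without the 100 most expressed non-members the difference in share was -0.0238 percentage points for all members in place of 0.0273, -0.175 for S100 proteins, 0.287 for annexins and -0.136 for galectins. Leaving out 1 library gave 2 to 4 members higher past 2-fold, 1 to 3 of them S100 genes, 1 to 2 annexins and 0 to 1 galectins lower, and medians of -0.59 to -0.37 for S100 genes, 0.18 to 0.22 for annexins and 0.68 to 0.75 for galectins. Relatives outside the symbol rule called higher numbered 1 as reported, 2 without a filter and 0 with quantile normalization, and those lower 1, 2 and 3, and 0 with the filter, where the epidermal count was also 0. Apart from the filters, the cause of these changes was not tested.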

Other observations

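Genes close to the 3 families but outside the symbol rule were mostly low. Of 8 such relatives in the table, 4 were tested, and FLG, filaggrin, was higher in 231-BR cells at 2.91 ± 0.085 against 2.24 ± 0.16 FPKM (log2 fold change 0.36, adjusted p = 0.0014). LGALSL, the galectin-like gene, had 1.98 and 1.94 FPKM (0.03, adjusted p = 0.75). The epidermal differentiation complex lies between S100 genes on chromosome 1. FLG, HRNR and TCHH, which also lie there and were tested, were counted with the relatives above. Of the 36 symbols listed for the complex, 10 were in the table and 1 was tested. This was SPRR2A, listed at 0 in every library of 231-BR cells and at 0.69, 0.47 and 0.52 FPKM in MDA-MB-231 cells. SPRR2A thus passed the filter on low values only through MDA-MB-231 cells.

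Other calcium sensors were lower more often than higher, with 10 lower and 4 higher of 18 tested and a median log2 fold change of -0.17. Over all genes tested, 32.9% were lower and 44.4% higher. RCN3, a calcium-binding protein of the endoplasmic reticulum involved in collagen production, had 17.9, 19.0 and 19.8 FPKM in 231-BR cells and 0.32, 0.22 and 0.22 FPKM in MDA-MB-231 cells (log2 fold change 5.76, adjusted p = 5.7e-11). CALM2, a calmodulin gene, fell from 542 ± 3.43 to 270 ± 0.70 FPKM (-1.01, adjusted p = 5.3e-11). EFHD1, a mitochondrial calcium sensor, fell from 2.64 ± 0.16 to 0.747 ± 0.046 FPKM (-1.69, adjusted p = 6.7e-08).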
